A study of Caenorhabditis elegans with 6 samples.

Results

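Oocyte, eggshell and germline genes were followed in whole late L4 larvae of 2 *ets-4* mutant strains of *C. elegans* and of wild-type N2 worms. The set was a list of 38 symbols: regulators of oocyte and maternal mRNA, the yolk receptor, components of the eggshell and of egg activation, oocyte meiosis genes, germ granule genes and regulators of germ cell proliferation and meiotic entry. Symbols were matched to the array through their sequence names, and 34 of the 38 had a probe, among 18874 genes with a probe in all. All 34 passed the signal filter, as did 14765 genes in all, and each of the 34 was well above background in both channels on all 6 arrays with no saturated spot. No probe was matched to *puf-6*, *egg-4*, *nos-2* and *cgh-1*, and these were not analysed here. By the RefSeq annotation of WBcel235 the 34 lie on the autosomes, 8 on chromosome I, 4 on II, 6 on III, 12 on IV and 4 on V, and none on X, which held 2015 of the 14350 genes that passed the filter and had a chromosome. The matched genes are treated below by their roles, and a level is compared only between arrays for the same probe, since probes differ in brightness for reasons other than RNA amount.

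*ets-4(uz1)* larvae, which carry a deletion of most of the ETS domain, were on 3 arrays. *ets-4(ok165)* larvae, whose deletion takes out the regions coding for the PNT and ETS domains, were on the other 3. On each array cDNA of 1 mutant sample carried Cy5 and cDNA of 1 wild-type sample carried Cy3, with no dye swap, so any dye effect of a probe sits in every ratio and drops out when the ratios of one strain are subtracted from those of the other. All worms were staged by hypochlorite treatment of adults and grown on OP50 bacteria. Arrays are numbered 1 to 3 within a strain, and the methods call them independent repeats. Whether the arrays of 1 number shared a wild-type RNA preparation is not given in the sources used here.

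The hermaphrodite gonad makes sperm during the L4 stage and then turns to oocytes, so oocyte and eggshell transcripts build up in the germ line around the time these larvae were collected. Growing oocytes store mRNAs whose translation is held back by RNA-binding proteins of the CCCH zinc-finger, Pumilio (PUF), KH and RRM families. They also take up yolk from the intestine through the receptor RME-2 and load the materials of the eggshell, a layered coat that forms after fertilization. Germ granules, called P granules in worms, hold RNA and RNA-binding proteins at the nuclei of germ cells. In RNA of whole larvae, fewer germ cells or oocytes and less RNA in each of them cannot be told apart.

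Facts of the whole series bear on these values. The *ets-4* probe gave log2 ratios between −3.18 and −2.84 in *ets-4(uz1)* larvae and between −3.59 and −2.72 in *ets-4(ok165)* larvae, below wild type on all 6 arrays. Whether the probe lies in the deleted parts was not determined here. The first arrays of both strains were on 1 slide, arrays 2 and 3 of *ets-4(uz1)* on another and arrays 2 and 3 of *ets-4(ok165)* on the third. The first arrays of the strains had different scan dates, the second arrays shared 1 scan date and the third arrays shared another. Among markers of other tissues, the intestinal yolk genes *vit-1* to *vit-6* were lower in *ets-4(uz1)* larvae, all 6 called. In *ets-4(ok165)* larvae 3 of them were called: *vit-3*, *vit-4* and *vit-5*. Of the 6 zygotic embryo markers 1 passed the signal filter.

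In the fit with 1 mean per strain, no member was called in any comparison. A call here is an adjusted p under 0.05 from limma, adjusted by the Benjamini-Hochberg method over all genes tested. In *ets-4(uz1)* larvae 0 of 34 members were called, beside 3.54% of all genes tested. In *ets-4(ok165)* larvae 0 of 34 were called, beside 0.0948% of all genes. For *ets-4(uz1)* minus *ets-4(ok165)* 0 of 34 were called, beside 0.163% of all genes. The lowest adjusted p of a member was 0.114 in *ets-4(uz1)* larvae, 0.591 in *ets-4(ok165)* larvae and 0.603 for the difference. Rank Products, the method of the study, run at a probability of false prediction under 0.1, also called 0 members in both strains, beside 2.81% of genes for *ets-4(uz1)* and 0.662% for *ets-4(ok165)*.

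The ratios nonetheless moved together from array to array. Over the 34 members the median log2 ratio of *ets-4(uz1)* over wild type was 0.82 on array 1, 1.04 on array 2 and −0.03 on array 3. In *ets-4(ok165)* larvae it was −0.89 on array 1, 0.05 on array 2 and −0.05 on array 3. The median over all genes lay between −0.04 and 0.05 on every array. Thus most members were higher than wild type on *ets-4(uz1)* arrays 1 and 2, lower on *ets-4(ok165)* array 1, and near wild type on the remaining arrays. On the *ets-4(uz1)* arrays 31, 30 and 14 of the 34 ratios were above 0 on arrays 1, 2 and 3, and on the *ets-4(ok165)* arrays 2, 17 and 13 were. Over all 14765 genes 7479, 7835 and 7398 were above 0 on the *ets-4(uz1)* arrays, and 6814, 7551 and 7236 on the *ets-4(ok165)* arrays. The strain medians of the members' mean ratios were 0.60 in *ets-4(uz1)* larvae against −0.28 in *ets-4(ok165)* larvae, and the array medians had an SD of 0.57 and 0.52 (n = 3 each). The *ets-4(ok165)* median rested on its first array and was 0.05 without it, and the *ets-4(uz1)* median was 0.36 without array 2 and 0.90 without array 3. That *ets-4(ok165)* array had 151 spots flagged as outliers, against 3 to 23 on the other arrays. In Cy5 85.4% of its spots were well above background, against 72.8% to 78.3% on the others. Whether this bears on its ratios was not tested.

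**Figure D1:**
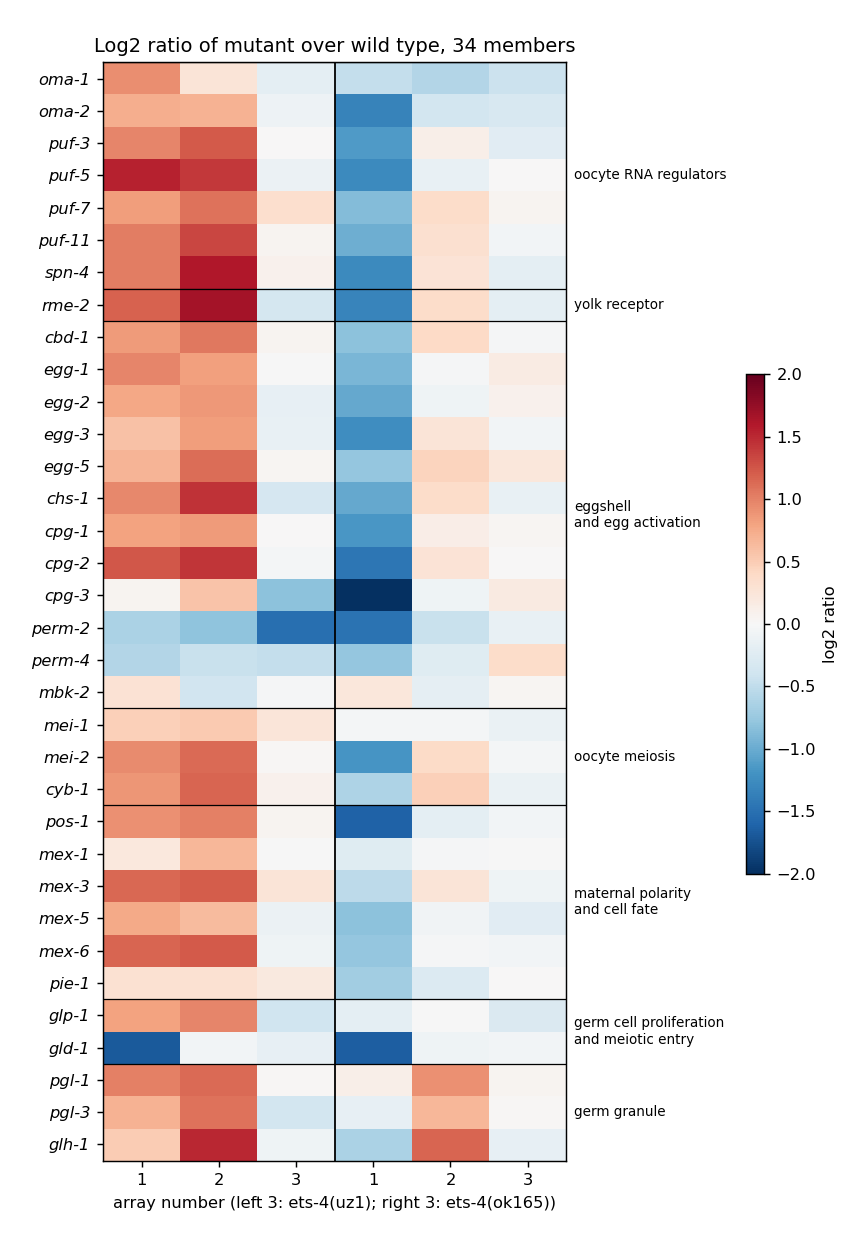
Log2 ratio of mutant over wild type (color) for the 34 members (rows, grouped by role) on each of the 6 arrays, *ets-4(uz1)* arrays 1 to 3 on the left and *ets-4(ok165)* arrays 1 to 3 on the right. Most rows are red on *ets-4(uz1)* arrays 1 and 2, blue on *ets-4(ok165)* array 1 and pale elsewhere; *perm-2* and *perm-4* are blue on all 3 *ets-4(uz1)* arrays.

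At an unadjusted p under 0.05, 10 of 34 members were higher in *ets-4(uz1)* larvae, beside 9.88% of all genes tested, and 1, *perm-2*, was lower, beside 9.67%. The 10 were *puf-3*, *puf-5*, *puf-7*, *puf-11*, *spn-4*, *mei-1*, *cyb-1*, *mex-3*, *mex-6* and *pgl-1*. In *ets-4(ok165)* larvae 2 members, *oma-2* and *perm-2*, were lower at that level, beside 3.61% of all genes, and 0 were higher, beside 4.52%. None of these passed the adjusted threshold. Members share RNA, array and tissue, so their ratios are not independent of each other.

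The oocyte RNA regulators on the array were *oma-1*, *oma-2*, *puf-3*, *puf-5*, *puf-7*, *puf-11* and *spn-4*, and all 7 had a mean ratio above 0 in *ets-4(uz1)* larvae and below 0 in *ets-4(ok165)* larvae. Over all 14765 genes, 7900 means were above 0 in *ets-4(uz1)* larvae and 7968 were below 0 in *ets-4(ok165)* larvae. On *ets-4(ok165)* array 2, 4 of the 7 regulators were above 0. *puf-5* encodes a Pumilio-family protein that acts in late oogenesis. Its log2 ratios were 1.54, 1.42 and −0.11 in *ets-4(uz1)* larvae, against −1.28, −0.15 and 0.00 in *ets-4(ok165)* larvae. The strains overlapped through *ets-4(uz1)* array 3. The mean was 0.95 ± 0.92 in *ets-4(uz1)* larvae, or 1.93 times the wild-type level, which limma did not call (adjusted p = 0.227). It was −0.47 ± 0.70 in *ets-4(ok165)* larvae (SD, n = 3 each). The difference of 1.43 between the strains, with a standard error of 0.53, was the largest of any member and did not pass (adjusted p = 0.665).

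*puf-7*, whose close relative *puf-6* was not analysed here, had ratios of 0.83, 1.09 and 0.34 in *ets-4(uz1)* larvae, against −0.86, 0.37 and 0.05 in *ets-4(ok165)* larvae. It was above 0 on all 3 *ets-4(uz1)* arrays and overlapped between the strains. A second, dimmer *puf-7* probe, well above background in the wild-type channel on 2 of 6 arrays, read 0.35, 1.21 and −0.60 in *ets-4(uz1)* larvae, against 0.72, 0.07 and −0.01 in *ets-4(ok165)* larvae. The 2 probes had opposite signs on *ets-4(uz1)* array 3 and on *ets-4(ok165)* arrays 1 and 3. *puf-3* and *puf-11* form another close pair of PUF genes. *puf-3* had ratios of 0.97, 1.23 and 0.01 in *ets-4(uz1)* larvae, against −1.13, 0.11 and −0.23 in *ets-4(ok165)* larvae. *puf-11* had ratios of 1.03, 1.34 and 0.05 in *ets-4(uz1)* larvae, against −0.98, 0.32 and −0.05 in *ets-4(ok165)* larvae. The pair gave nearly the same values on every array. Probes of such close relatives may bind each other's transcripts, and the probe sequences were not used here.

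*spn-4*, which encodes an RRM protein loaded into oocytes, had ratios of 1.02, 1.60 and 0.09 in *ets-4(uz1)* larvae, against −1.27, 0.28 and −0.19 in *ets-4(ok165)* larvae. Its difference between the strains was 1.29 with a standard error of 0.51 (limma adjusted p = 0.695). *oma-1* and *oma-2* encode CCCH zinc-finger proteins that act redundantly in oocyte maturation. *oma-2* had ratios of 0.73, 0.70 and −0.10 in *ets-4(uz1)* larvae, against −1.34, −0.37 and −0.32 in *ets-4(ok165)* larvae. *oma-1* had ratios of 0.93, 0.26 and −0.19 in *ets-4(uz1)* larvae, against −0.47, −0.59 and −0.43 in *ets-4(ok165)* larvae. Both genes were lower than wild type on all 3 *ets-4(ok165)* arrays, and for both every *ets-4(uz1)* ratio was above every *ets-4(ok165)* ratio.

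*rme-2* encodes the oocyte receptor that takes up the vitellogenins. It had ratios of 1.18, 1.66 and −0.35 in *ets-4(uz1)* larvae, against −1.32, 0.37 and −0.20 in *ets-4(ok165)* larvae. The yolk receptor was thus high on the first 2 *ets-4(uz1)* arrays, low on 1 *ets-4(ok165)* array, and below wild type on array 3 of both strains. Its mean was 0.83 ± 1.0 in *ets-4(uz1)* larvae (limma adjusted p = 0.344) and −0.39 ± 0.86 in *ets-4(ok165)* larvae (limma adjusted p = 0.847; SD, n = 3 each), and without *ets-4(ok165)* array 1 that strain's mean was 0.08. The ligand's genes took another course, and every *vit* gene was below wild type on every array. *vit-3*, among the most lowered, had ratios between −3.10 and −3.01 in *ets-4(uz1)* larvae and between −2.54 and −1.82 in *ets-4(ok165)* larvae. *vit-1*, the least lowered by its mean, had ratios between −2.11 and −1.34 in *ets-4(uz1)* larvae. In *ets-4(ok165)* larvae *vit-1* had ratios between −1.2 and −0.43 and was not called (limma adjusted p = 0.52).

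The eggshell and egg activation genes were the largest role group, with 12 of 13 on the array. The mean ratio was above 0 for 8 of the 12 in *ets-4(uz1)* larvae, and below 0 for 11 of the 12 in *ets-4(ok165)* larvae. Their median ratio was 0.72, 0.84 and −0.10 on the *ets-4(uz1)* arrays and −1.03, 0.06 and 0.04 on the *ets-4(ok165)* arrays. *cpg-1* and *cpg-2* encode chondroitin proteoglycans of the eggshell. *cpg-2* had ratios of 1.24, 1.43 and −0.04 in *ets-4(uz1)* larvae, against −1.45, 0.27 and 0.00 in *ets-4(ok165)* larvae. *cpg-1* had smaller ratios of the same signs on the first 2 arrays, 0.80, 0.85 and 0.00 in *ets-4(uz1)* larvae, against −1.16, 0.14 and 0.04 in *ets-4(ok165)* larvae. *cpg-3*, another chondroitin proteoglycan gene, had ratios of 0.05, 0.57 and −0.82 in *ets-4(uz1)* larvae, against −2.0, −0.09 and 0.18 in *ets-4(ok165)* larvae. Its ratio of −2.0 was the lowest of any member on any array, and the *ets-4(ok165)* mean of −0.64 became 0.05 without that array.

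*egg-1* and *egg-2* encode LDL-receptor-like proteins of the oocyte surface that are needed for fertilization. *egg-1* had ratios of 0.97, 0.82 and −0.01 in *ets-4(uz1)* larvae, against −0.92, −0.02 and 0.16 in *ets-4(ok165)* larvae. *egg-2* had ratios of 0.77, 0.87 and −0.17 in *ets-4(uz1)* larvae, against −1.02, −0.09 and 0.09 in *ets-4(ok165)* larvae. The pair again stayed close to each other on each array. *egg-3*, *egg-4* and *egg-5* encode pseudo-phosphatases that hold the kinase MBK-2 at the oocyte cortex until the egg is activated. *egg-5* had ratios of 0.68, 1.11 and 0.04 in *ets-4(uz1)* larvae, against −0.78, 0.44 and 0.22 in *ets-4(ok165)* larvae. Its second probe gave 0.68, 1.08 and −0.24 in *ets-4(uz1)* larvae, against −0.87, 0.19 and 0.13 in *ets-4(ok165)* larvae, with the same sign as the first on 5 of the 6 arrays. *egg-3*, *chs-1*, the chitin synthase gene of the eggshell, and *cbd-1*, a gene of the vitelline layer, had mean ratios of 0.42, 0.69 and 0.65 in *ets-4(uz1)* larvae, against −0.35, −0.27 and −0.14 in *ets-4(ok165)* larvae.

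*perm-2* and *perm-4*, which encode proteins of the vitelline layer and are next to each other on chromosome IV, went the other way in *ets-4(uz1)* larvae. *perm-2* had ratios of −0.64, −0.80 and −1.51 in *ets-4(uz1)* larvae, against −1.48, −0.45 and −0.15 in *ets-4(ok165)* larvae. All 6 ratios were below 0, and the means of −0.98 ± 0.46 in *ets-4(uz1)* larvae against −0.70 ± 0.70 in *ets-4(ok165)* larvae (SD, n = 3 each) were the largest in size of any member in both strains. Neither was called by limma, with adjusted p = 0.125 in *ets-4(uz1)* larvae and adjusted p = 0.607 in *ets-4(ok165)* larvae. *perm-4* had ratios of −0.58, −0.44 and −0.47 in *ets-4(uz1)* larvae, against −0.77, −0.24 and 0.37 in *ets-4(ok165)* larvae. Its *ets-4(uz1)* mean of −0.50 ± 0.071 was among the tightest of the set and was not called (adjusted p = 0.275). *mbk-2*, which encodes the kinase itself, stayed near wild type, at 0.29, −0.39 and −0.02 in *ets-4(uz1)* larvae, against 0.22, −0.18 and 0.04 in *ets-4(ok165)* larvae, and its second probe gave −0.70, −0.32 and 0.05 in *ets-4(uz1)* larvae, against −0.62, −0.21 and 0.19 in *ets-4(ok165)* larvae. The 2 probes of *mbk-2* had opposite signs on array 1 of both strains and, close to 0, on *ets-4(uz1)* array 3.

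The 3 oocyte meiosis genes all had ratios above 0 on every *ets-4(uz1)* array, though *mei-2* and *cyb-1* were near 0 on array 3. None of the 3 was called by limma. *mei-1* and *mei-2* encode the subunits of katanin, which severs microtubules in the meiotic spindle, and *cyb-1* encodes a cyclin B. *mei-1* had ratios of 0.47, 0.52 and 0.24 in *ets-4(uz1)* larvae, against −0.04, −0.04 and −0.13 in *ets-4(ok165)* larvae. The strains did not overlap for *mei-1*, and its difference of 0.48 with a standard error of 0.20 was not called (limma adjusted p = 0.738). *mei-2* had ratios of 0.94, 1.13 and 0.03 in *ets-4(uz1)* larvae, against −1.18, 0.38 and −0.04 in *ets-4(ok165)* larvae. *cyb-1* had ratios of 0.88, 1.17 and 0.09 in *ets-4(uz1)* larvae, against −0.62, 0.48 and −0.14 in *ets-4(ok165)* larvae.

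The genes of maternal polarity and cell fate act in the early embryo from mRNA laid down in the oocyte, and 6 of 7 were on the array. All 6 had a mean above 0 in *ets-4(uz1)* larvae and below 0 in *ets-4(ok165)* larvae. *pos-1*, a CCCH zinc-finger gene, had ratios of 0.92, 1.01 and 0.06 in *ets-4(uz1)* larvae, against −1.62, −0.20 and −0.06 in *ets-4(ok165)* larvae, so every *ets-4(uz1)* array was above and every *ets-4(ok165)* array below wild type. The difference for *pos-1* was 1.29 with a standard error of 0.47 (limma adjusted p = 0.654). *mex-5* and *mex-6* are redundant zinc-finger genes of embryonic polarity. *mex-5* had ratios of 0.75, 0.64 and −0.12 in *ets-4(uz1)* larvae, against −0.82, −0.07 and −0.22 in *ets-4(ok165)* larvae. *mex-6* had ratios of 1.16, 1.22 and −0.09 in *ets-4(uz1)* larvae, against −0.78, −0.02 and −0.06 in *ets-4(ok165)* larvae.

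*mex-3*, a KH-domain gene, had the lowest adjusted p of the set in *ets-4(uz1)* larvae, with ratios of 1.15, 1.21 and 0.25 there, against −0.53, 0.25 and −0.08 in *ets-4(ok165)* larvae. Its second probe read 0.47, 0.73 and 0.09 in *ets-4(uz1)* larvae, against −1.07, −0.08 and −0.04 in *ets-4(ok165)* larvae. Both *mex-3* probes were above 0 on all 3 *ets-4(uz1)* arrays. *pie-1*, whose product keeps germline precursors of the embryo transcriptionally silent, had small and steady ratios in *ets-4(uz1)* larvae. They were 0.30, 0.31 and 0.20 there, against −0.69, −0.28 and 0.01 in *ets-4(ok165)* larvae. *mex-1* ranged between −0.01 and 0.66 in *ets-4(uz1)* larvae and between −0.25 and −0.01 in *ets-4(ok165)* larvae.

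The germ granule genes were highest on the arrays numbered 2 in both strains. *pgl-1* and *pgl-3* encode P granule scaffold proteins and *glh-1* a DEAD-box helicase of the same granules. *pgl-1* had ratios of 1.01, 1.14 and 0.03 in *ets-4(uz1)* larvae, against 0.12, 0.92 and 0.05 in *ets-4(ok165)* larvae. *pgl-3* had ratios of 0.70, 1.09 and −0.36 in *ets-4(uz1)* larvae, against −0.17, 0.66 and 0.02 in *ets-4(ok165)* larvae. *glh-1* had ratios of 0.51, 1.51 and −0.08 in *ets-4(uz1)* larvae, against −0.64, 1.17 and −0.16 in *ets-4(ok165)* larvae. Its value on *ets-4(ok165)* array 1 was close to the −0.62 of *cyb-1* there. The median of the 3 genes was 0.92 on *ets-4(ok165)* array 2, where that of the oocyte RNA regulators was 0.11, and −0.17 on *ets-4(ok165)* array 1, where that of the RNA regulators was −1.13. On *ets-4(ok165)* array 3 it was 0.02, against −0.05 for all members. Whether the role groups differ was not tested.

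*glp-1* and *gld-1* act earlier in germ cell development. *glp-1*, the Notch-family receptor that keeps germ cells proliferating, had ratios of 0.81, 0.98 and −0.40 in *ets-4(uz1)* larvae, against −0.19, −0.01 and −0.29 in *ets-4(ok165)* larvae. *gld-1*, a KH-domain translational repressor of meiotic germ cells, had ratios of −1.68, −0.05 and −0.17 in *ets-4(uz1)* larvae, against −1.65, −0.08 and −0.06 in *ets-4(ok165)* larvae. It was low on array 1 of both strains, which shared a slide, and near wild type on the other 4 arrays.

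**Figure D2:**
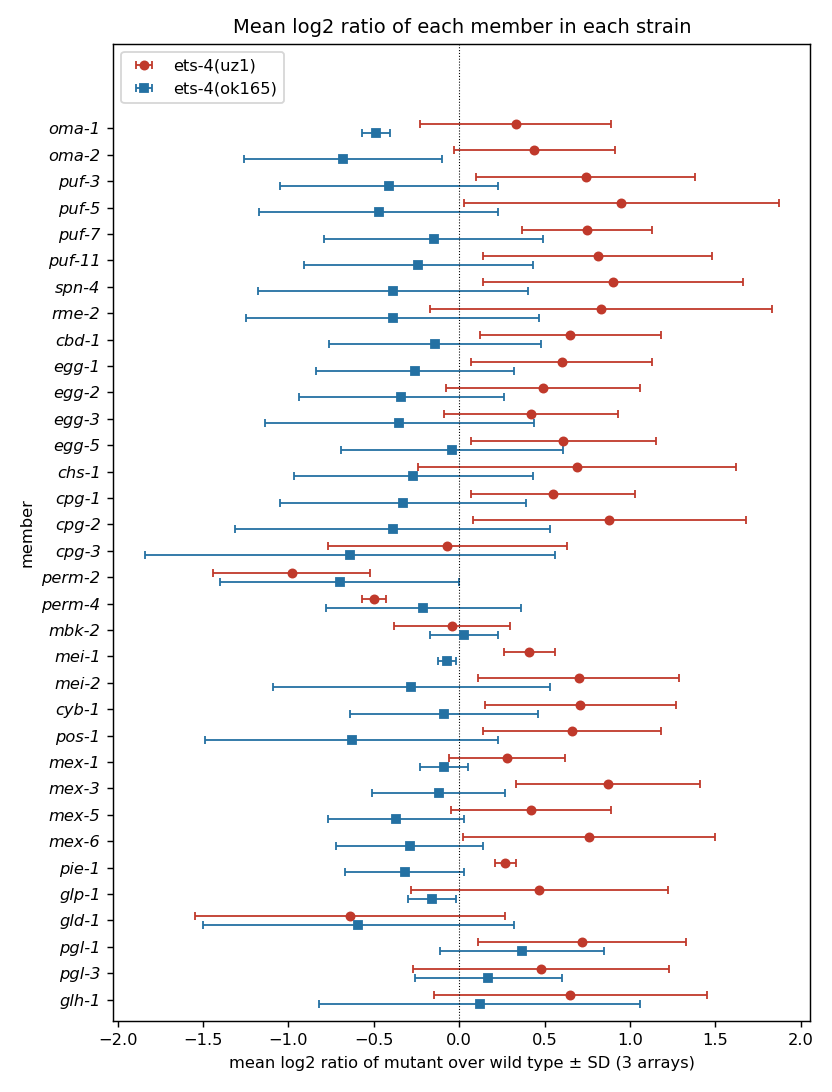
Mean log2 ratio of mutant over wild type of each of the 34 members in *ets-4(uz1)* larvae (circles) and *ets-4(ok165)* larvae (squares); bars are the SD over 3 arrays. Most *ets-4(uz1)* means lie right of 0 and most *ets-4(ok165)* means left of it, with SDs of up to 1.2. *perm-2*, *perm-4*, *gld-1* and, just below 0 in *ets-4(uz1)* larvae, *cpg-3* lie left of 0 in both strains.

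Arrays of the same number deviated together, and blocking the fit on array number changed the call of 2 members. In the blocked limma fit *pgl-1* was higher in *ets-4(uz1)* larvae, with a mean of 0.72 (adjusted p = 0.0445, and 0.207 without the block). *gld-1* was lower, with a mean of −0.64 (limma adjusted p = 0.0246, and 0.440 without the block). That is 5.88% of the 34 members, beside 15.5% of all genes tested in that fit. Without *ets-4(uz1)* array 1 and without the block the *gld-1* mean was −0.11, and its difference between the strains changed sign to 0.48.

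For *ets-4(uz1)* minus *ets-4(ok165)*, 30 of the 34 members had a difference above 0, and the median difference was 0.82, beside 0.04 over all genes. At an unadjusted p under 0.05, 12 members were higher in *ets-4(uz1)* larvae, beside 3.73% of all genes tested. They were 6 oocyte RNA regulators (*oma-1*, *oma-2*, *puf-3*, *puf-5*, *puf-7* and *spn-4*), *mei-1* and 5 maternal genes (*pos-1*, *mex-3*, *mex-5*, *mex-6* and *pie-1*). Every *ets-4(uz1)* ratio lay above every *ets-4(ok165)* ratio for 5 members, *oma-1*, *oma-2*, *mei-1*, *pos-1* and *pie-1*, beside 6.23% of all genes. For *mei-1* and *pos-1* all *ets-4(uz1)* ratios were also above 0 and all *ets-4(ok165)* ratios below 0, which held for 0.939% of all genes.

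The difference was not the same on the 3 pairs of arrays. On arrays with the number 1, which shared a slide but not a scan date, the median of *ets-4(uz1)* minus *ets-4(ok165)* over the members was 1.68. There 33 of 34 members were higher in *ets-4(uz1)* larvae, beside 7634 of all 14765 genes. On arrays with the number 2, which shared a scan date, the median was 0.71, with 31 of 34 higher, beside 7693 of all genes. On arrays with the number 3, which shared another scan date, it was −0.03, with 15 of 34 higher, beside 7744 of all genes. The strains therefore stood apart in these genes on the first 2 pairs of arrays and not on the third. With 1 array left out, the median was lowest, 0.53, without *ets-4(ok165)* array 1 and highest, 1.1, without *ets-4(uz1)* array 3. By role, the median on the arrays numbered 1 was 2.07 for the RNA regulators, 1.82 for the eggshell and egg activation genes, 1.50 for oocyte meiosis, 1.62 for the maternal genes and 0.88 for the germ granule genes. It was 0.48 for the 2 genes of germ cell proliferation and meiotic entry, of which 1 was higher in *ets-4(uz1)* larvae, and the yolk receptor gene *rme-2* had 2.51.

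**Figure D3:**
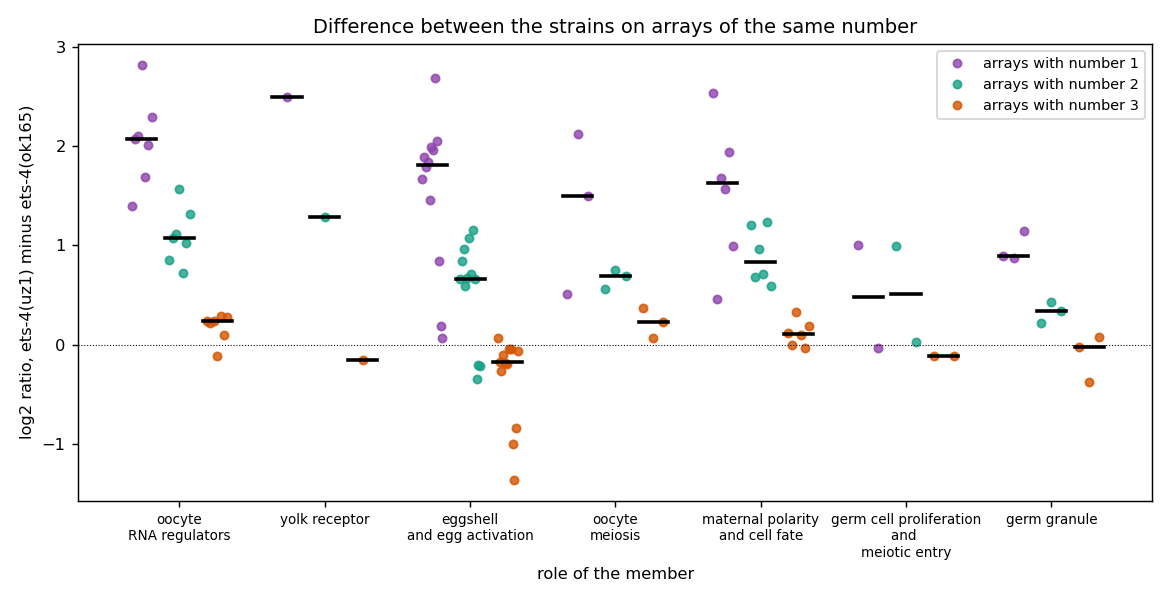
Difference in log2 ratio between *ets-4(uz1)* and *ets-4(ok165)* for each member (points) on arrays of the same number, by role (horizontal axis); black bars are medians. The points lie well above 0 for number 1 (median over the members 1.68), nearer to 0 for number 2 (0.71) and about 0 for number 3 (−0.03).

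The single-channel signals show which side of each ratio moved. They are log2 signals after normalization of average intensity across arrays (Aquantile), read for each probe across arrays. The wild-type signals of the 2 arrays with the same number were close, with a median absolute difference over the members of 0.12, 0.15 and 0.07 for numbers 1, 2 and 3, beside 0.20, 0.09 and 0.09 over all genes. Between numbers they differed far more. The median member was 3.20-fold brighter in the wild-type samples numbered 3 than in those numbered 2, and 2.24-fold brighter in those numbered 3 than in those numbered 1. Over all genes these ratios were 0.983 and 0.974. Both samples numbered 3 were above the other 4 wild-type samples for 31 of 34 members, beside 28.9% of all genes. Of these members 28 also had both samples numbered 1 above both numbered 2. That full order held for 2188 of the 14586 genes with a value on every array.

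For *rme-2* the mutant signals were 14.56, 14.21 and 14.69 in *ets-4(uz1)* larvae and 11.94, 13.09 and 14.85 in *ets-4(ok165)* larvae. The wild-type signals were 13.38, 12.55 and 15.03 on the *ets-4(uz1)* arrays and 13.26, 12.72 and 15.06 on the *ets-4(ok165)* arrays. The *ets-4(uz1)* larvae were thus nearly level across the arrays, with a range of 0.48 on the log2 scale, and the *ets-4(ok165)* larvae had a range of 2.91. Over the 6 wild-type samples the range was 2.51, or 5.68-fold. *puf-5* behaved alike, with mutant signals of 14.34, 13.86 and 14.17 in *ets-4(uz1)* larvae and 11.58, 12.43 and 14.62 in *ets-4(ok165)* larvae. Its wild-type signals were 12.80, 12.44 and 14.28 on the *ets-4(uz1)* arrays and 12.86, 12.58 and 14.62 on the *ets-4(ok165)* arrays. *cpg-2* had mutant signals of 16.11, 15.50 and 16.30 in *ets-4(uz1)* larvae and 13.41, 14.17 and 16.19 in *ets-4(ok165)* larvae. In wild type it had 14.86, 14.07 and 16.34 on the *ets-4(uz1)* arrays and 14.86, 13.90 and 16.19 on the *ets-4(ok165)* arrays. All samples numbered 3, mutant and wild type, were near the top of the range of these 3 genes.

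**Figure D4:**
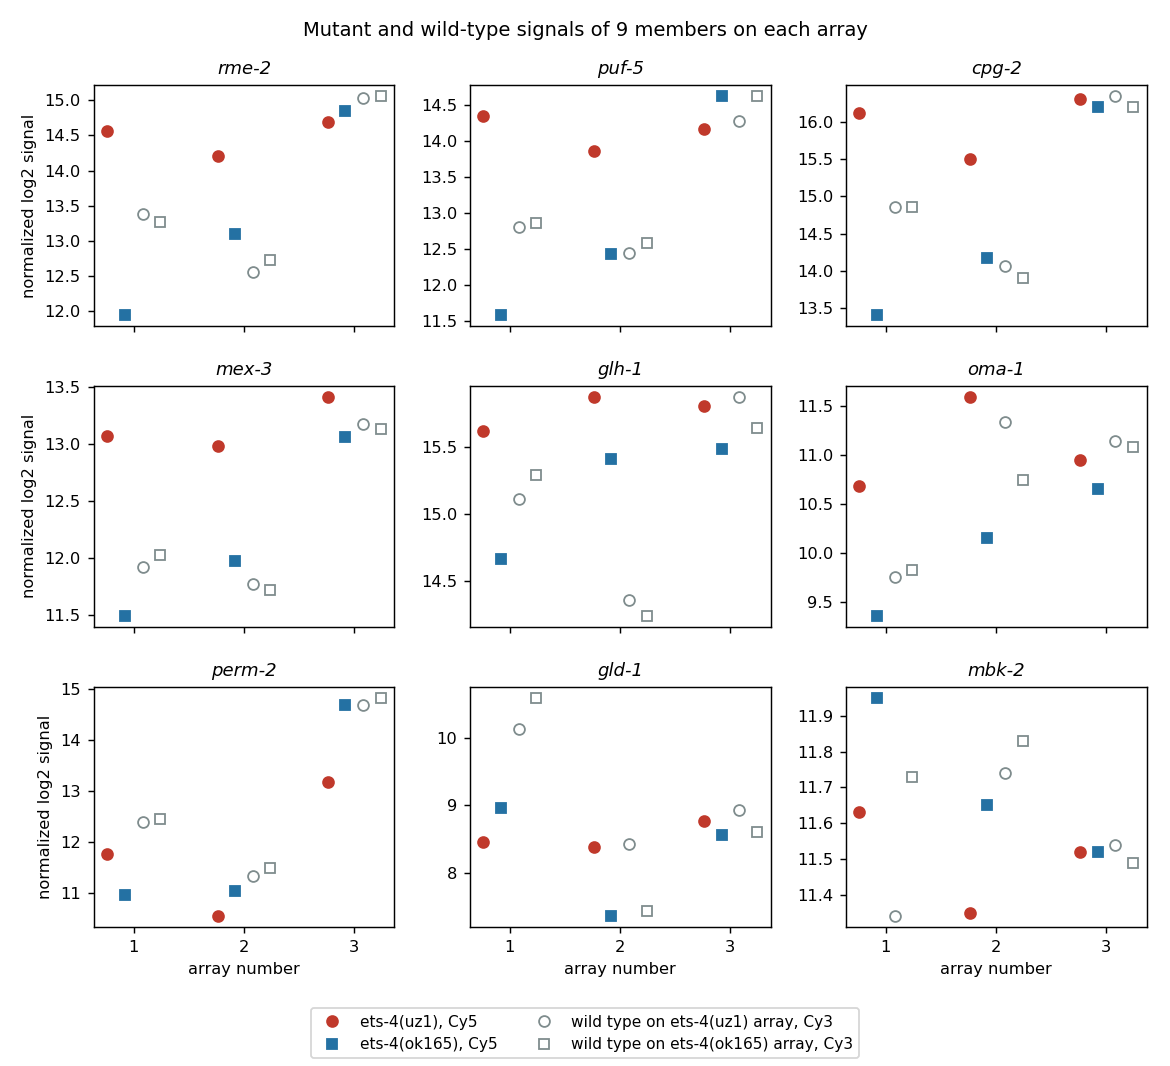
Normalized log2 signal (vertical axis, a separate scale in each panel) of 9 members in *ets-4(uz1)* (red) and *ets-4(ok165)* (blue) larvae and in the wild-type sample of each array (open symbols), by array number (horizontal axis). For *rme-2*, *puf-5*, *cpg-2* and *mex-3* the *ets-4(uz1)* points stay high at every number, while the wild-type points are high only at number 3 and the *ets-4(ok165)* points are lowest at number 1.

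This held over the set. The range of the 3 *ets-4(uz1)* signals had a median of 0.54 over the members, against 1.59 for the wild-type signals on the same arrays, and the wild-type range was the larger for 34 of 34 members. For *perm-4* the 2 ranges were nearly equal, at 2.66 in wild type and 2.63 in *ets-4(uz1)* larvae. The range of the 3 *ets-4(ok165)* signals had a median of 2.08, against 1.77 for wild type on the same arrays, and the wild-type range was the larger for 8 of 34. Over all genes the median range was 0.46 in *ets-4(uz1)* larvae, against 0.73 in wild type on the same arrays, and 0.76 in *ets-4(ok165)* larvae, against 0.77 in wild type. Relative to each member's mean wild-type signal, the median mutant signal was 0.71, 0.42 and 0.84 in *ets-4(uz1)* larvae and −1.14, −0.60 and 0.94 in *ets-4(ok165)* larvae. The median wild-type signal was −0.14, −0.66 and 0.95 on the *ets-4(uz1)* arrays and −0.23, −0.86 and 0.96 on the *ets-4(ok165)* arrays. All *ets-4(uz1)* samples, the third *ets-4(ok165)* sample and the wild-type samples numbered 3 thus had median levels above the mean wild-type signal. The lowest of these was 0.42, on *ets-4(uz1)* array 2, and the other samples lay below that mean. Mutant signals in Cy5 are set here beside wild-type signals in Cy3, so a dye effect of a probe remains between the channels.

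**Figure D5:**
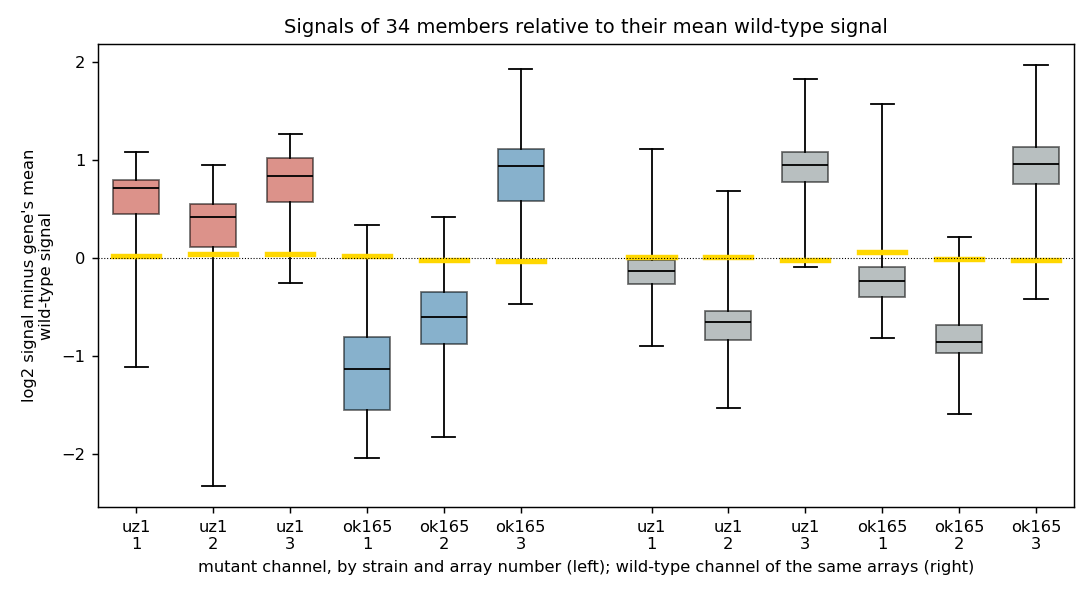
Signals of the 34 members minus each member's mean wild-type signal (log2), in the mutant channel (left, red *ets-4(uz1)*, blue *ets-4(ok165)*) and the wild-type channel (right, gray) of each array; boxes show the quartiles and median, whiskers the lowest and highest member, and yellow bars the median over all genes. The *ets-4(uz1)* medians stay between 0.42 and 0.84, while the *ets-4(ok165)* medians run between −1.14 and 0.94 and the wild-type medians between −0.86 and 0.96.

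Members that departed from this pattern were few. *oma-1* was lowest in the wild-type samples numbered 1, at 9.75 and 9.83, against 11.33 and 10.74 for number 2 and 11.14 and 11.08 for number 3. *gld-1* had wild-type signals of 10.13 and 10.59 for number 1, 8.43 and 7.43 for number 2 and 8.93 and 8.60 for number 3. Its mutant signals were 8.45, 8.38 and 8.76 in *ets-4(uz1)* larvae and 8.95, 7.35 and 8.55 in *ets-4(ok165)* larvae, so the low ratios on array 1 went with a high wild-type signal there. *mbk-2* varied by 1.40-fold between its lowest and highest wild-type sample, the least of any member. *mei-1* and *pie-1* also varied little, by 1.65-fold and 1.48-fold, and *glp-1* and *pgl-1* were about level between the wild-type samples numbered 1 and 2.

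*perm-2* and *perm-4* differed most between the wild-type samples numbered 3 and 2, and were 10.2-fold and 7.01-fold brighter in those numbered 3. For *perm-2* the mutant signals were 11.75, 10.53 and 13.18 in *ets-4(uz1)* larvae and 10.95, 11.03 and 14.68 in *ets-4(ok165)* larvae. The wild-type signals were 12.39, 11.33 and 14.69 on the *ets-4(uz1)* arrays and 12.44, 11.48 and 14.83 on the *ets-4(ok165)* arrays. *perm-2* varied widely in *ets-4(uz1)* larvae too, with a range of 2.65, and so did *perm-4*, with 2.63, where the next widest member, *cpg-3*, had 1.13. In the other role groups the wild-type samples numbered 3 over those numbered 2 were 1.05-fold to 4.66-fold for the RNA regulators, 1.55-fold to 3.15-fold for oocyte meiosis, 1.3-fold to 4.34-fold for the maternal genes and 2.56-fold to 3.37-fold for the germ granule genes.

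Genes of other tissues that change around the last molt moved between the wild-type samples as well. Of 3 adult cuticle markers that passed the filter, 2 were higher in both wild-type samples numbered 3 than in both numbered 2, *col-7* by 14.2-fold and *col-19* by 10.1-fold, and *rol-6* was 0.696 times as bright. All 4 epidermal molting markers were lower in the samples numbered 3, at 0.391 to 0.723 times the level of those numbered 2. The 6 *vit* genes were 2.84-fold to 9.06-fold higher in the samples numbered 3, and the intestinal genes *ges-1* and *elt-2* were lower. Sperm genes were higher in the samples numbered 3 than in those numbered 2 for 34 of 34, beside 6182 of all 14765 genes, with a median of 2.01-fold. In the mutants *mlt-8* and *mlt-11* were higher in *ets-4(uz1)* larvae (limma adjusted p = 0.0364 and 0.0382) and *col-19* was lower, by a mean of −3.25 (adjusted p = 0.00747). The other molting and adult cuticle markers did not pass the test in *ets-4(uz1)* larvae. The molting genes *mlt-10* and *nas-37* had means of −0.09 and 0.42 (adjusted p = 0.88 and 0.378), and the cuticle genes *rol-6* and *col-7* had means of 0.86 and −0.76 (adjusted p = 0.104 and 0.4). The part of larval age, or of any of these tissues, in the values of the oocyte and germline genes was not tested.

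Germline genes outside the list were measured on the same arrays. Among 32 other oocyte and maternal genes that passed the filter, limma called 0 in any comparison. At an unadjusted p under 0.05, 4 were higher and 1 lower in *ets-4(uz1)* larvae, and 1 was higher for the difference, where the shares over all genes were 9.88%, 9.67% and 3.73%. Their median ratio was 0.34, 0.47 and 0.00 on the *ets-4(uz1)* arrays and −0.30, 0.17 and −0.09 on the *ets-4(ok165)* arrays. Among 29 other germ line genes limma also called 0, with 1 higher in *ets-4(uz1)* larvae and 4 higher for the difference at an unadjusted p under 0.05, and with medians of 0.42, 0.97 and 0.00 on the *ets-4(uz1)* arrays and −0.57, 0.33 and −0.16 on the *ets-4(ok165)* arrays. Both medians were nearer 0 than those of the listed members on *ets-4(uz1)* arrays 1 and 2 and *ets-4(ok165)* array 1, and farther from 0 on *ets-4(ok165)* arrays 2 and 3. In the fit blocked on array number, *daz-1*, *htp-3* and *ppw-1* were higher in *ets-4(uz1)* larvae, by means of 0.77, 0.73 and 0.91 (adjusted p = 0.0365, 0.0385 and 0.0257). That fit called 15.5% of all genes, 1063 of them higher, so 1 of the 32 oocyte and maternal genes and 2 of the 29 germ line genes were not more than the share over all genes. The 34 sperm genes had a median of 0.28, 0.57 and −0.11 on the *ets-4(uz1)* arrays and −1.03, 0.31 and −0.12 on the *ets-4(ok165)* arrays. All 34 were below wild type on *ets-4(ok165)* array 1, where 32 of the 34 oocyte and germline members were too. Over all 14765 genes, 6814 were above wild type on that array. Of the somatic gonad markers, 4 passed the filter, with medians between −0.22 and 0.20 on every array. Single genes moved more. *egl-17* had ratios of −0.63, 0.57 and 0.20 in *ets-4(uz1)* larvae, against −0.24, 1.02 and 0.06 in *ets-4(ok165)* larvae. *lim-7* had −0.13, 0.38 and −0.88, against 0.59, 0.18 and −0.04. *ceh-18* and *nhr-67* lay between −0.42 and 0.17. Wild-type samples numbered 3 over those numbered 2 were 0.129-fold for *egl-17*, 0.55-fold for *nhr-67*, 0.987-fold for *ceh-18* and 2.14-fold for *lim-7*.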

How the data were processed

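The authors extracted each spot in Cy3 (wild type) and Cy5 (mutant) with Agilent Feature Extraction, version 8.5.1.1 per the labels and, per the file headers, 9.1.3.1 for arrays 2 and 3 of both strains. The deposited intensity values hold the raw, background and dye-normalized signals of each spot. The authors' deposited log10 ratios are mutant over wild type, corrected for background and normalized by lowess on each array, and the deposited log2 ratios of the whole-series table are the same ratios per probe with flagged spots left out and a median of 0 on each array.

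Log10 ratios were converted to log2, spots of a probe were averaged without control and flagged spots, and a probe needed a signal well above background in Cy3 or Cy5 on 3 or more of the 6 arrays. A gene was read from its brightest such probe, 14765 genes in all. Of 18874 sequence names on the array, 18121 matched the RefSeq table of WBcel235, which gave the symbols. limma (version 3.58.1, R version 4.3.3) fitted 1 mean per strain over all 6 arrays, with 4 residual and 3.19 prior degrees of freedom. It was tested on simulated data, as was Rank Products (100 permutations). Deviations from the strain means correlated at 0.513, 0.686 and 0.292 between arrays of the same number, over 0.1 for each pair, so the number was taken to pair the arrays and a fit with it as a block was added. Single-channel signals came from Aquantile normalization.

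The members and lists were chosen with earlier results of these data known. Values on each array are given for members called in any comparison, for the 3 largest mean ratios per strain and the 3 largest differences. They are also given for the pairs of close relatives, and for *rme-2*, *glp-1* and *gld-1*. Those of *mei-1*, *mei-2*, *cyb-1*, *mbk-2*, *perm-4*, *mex-3*, *pie-1* and *glh-1* were added after their values were seen. Other members are given by range or mean. Alternatives covered the background correction, the filter, flagged spots, the choice of probe, blocks for number and slide, and leaving out each array. The number of arrays limits the precision.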

Additional observations from a re-analysis of the deposited data

Results flagged for a closer look

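For *pos-1* all 3 *ets-4(uz1)* ratios were above 0 and all 3 *ets-4(ok165)* ratios below 0, with a difference of 1.29 on the log2 scale that limma did not call (adjusted p = 0.654). The same held for *mei-1*, with a difference of 0.48 (adjusted p = 0.738). Opposite signs in both strains, in that order, occurred in 0.939% of all genes. No member had a wild-type sample that stood apart from the other 5 by Dixon's criterion. Wild-type samples of the same number were close (median absolute differences of 0.12, 0.15 and 0.07), so this check could hardly flag a single sample. It does not bear on how far wild type varied between numbers.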

How the results depend on the processing

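The count of members called was 0 in each comparison under every alternative run, with 1 exception. With the array number as a block, which pairs the arrays, 2 members were called in *ets-4(uz1)* larvae, *pgl-1* and *gld-1*. The members' median kept its sign under every change of processing. It ran from 0.51 with normexp background correction to 0.60 in *ets-4(uz1)* larvae, was −0.23 with normexp and −0.28 otherwise in *ets-4(ok165)* larvae, and ran from 0.65 to 0.82 for the difference. With 1 array left out it lay between 0.36 and 0.90 in *ets-4(uz1)* larvae, between −0.46 and 0.05 in *ets-4(ok165)* larvae and between 0.53 and 1.1 for the difference. With each array left out the *ets-4(ok165)* mean of *cpg-3* lay between −1.04 and 0.05 and that of *rme-2* between −0.76 and 0.08, both highest without *ets-4(ok165)* array 1. The *gld-1* difference lay between −0.57 and 0.48, above 0 also without *ets-4(ok165)* array 2 (0.22) or array 3 (0.23). Signals scaled by the array median in place of Aquantile moved no array's median shift by more than the spread between arrays, and this check was chosen after seeing the data.

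Counts over all genes moved more. In *ets-4(uz1)* larvae 522 genes were called, 128 with no filter on dim probes and 2292 with the replicate block, and 60 to 594 with 1 array left out. In *ets-4(ok165)* larvae 14 were called, 9 with normexp, 1 with no filter, 9 when every spot had to be well above background, 49 with the block, 1 when each strain was fitted alone, 125 by Rank Products, and 1 to 11 with 1 array left out. For the difference 24 were called, 7 with normexp, 1 with no filter, 92 with the block, and 0 to 18 with 1 array left out. The causes were not tested. Sequences of the probes and of the genes were not used here, so binding between close relatives was not examined.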
